A study of Homo sapiens with 6 samples.

Results

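The mesenchymal genes of glioblastoma were examined in U251, an established human glioma line, grown on fibers of the polyester poly-caprolactone. The members are a list of 42 symbols given for the subtype, and each is represented by its brightest probe set with exactly 1 gene symbol in the platform annotation. Because CD97 is an older symbol of ADGRE5, the list holds 41 genes, of which 39 had such a probe set among 19775 genes in all. For RUNX1 all 13 probe sets carry further symbols, and no probe set carries the symbol TAZ, which RefSeq lists as an older symbol of both WWTR1 and TAFAZZIN. Neither of these is described as a member.

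The aligned group consisted of 3 independent cultures on highly aligned electrospun nanofibers, and the random group of 3 independent cultures on randomly oriented ones. Cells of both groups grew and migrated for 24 h in medium with serum and without further treatment before RNA was taken, and each culture was read on 1 Affymetrix array. The comparison asks how gene expression depends on the topography of the fibers. All values are log2 units of the deposited RMA table, and a difference is aligned minus random. A gene was tested if its probe set lay above the array's own median on at least 3 of the 6 arrays, which held for 12381 genes and 31 of the 39 members. The material is 1 established line, without the immune and vessel cells of a host.

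Glioblastomas are commonly divided into proneural, classical and mesenchymal expression subtypes. The mesenchymal subtype is known for loss of NF1, for high CD44, CHI3L1 and MET, for signalling through TNF receptors and NF-kB, and for genes shared with wound repair and macrophage-rich tissue. STAT3, C/EBP beta, FOSL2, RUNX1 and BHLHE40 have been described as its transcriptional regulators, and the co-activator TAZ, encoded by WWTR1, as another.

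The line was checked against its markers first. Of 10 glioma cell markers 7 were above the filter. VIM, an intermediate filament, averaged 14.14 ± 0.08 on aligned fibers and 14.23 ± 0.03 on random fibers (SD over 3 arrays each), whereas AQP4, the astrocyte water channel, lay below the median on every array. GFAP, the astrocyte filament, averaged 5.22 ± 0.50 on aligned fibers and 6.03 ± 0.72 on random ones (SD over 3 arrays each), close to the medians of 5.63 to 5.66. Of 9 microglia and macrophage markers with a probe set, 8 lay below the median on every array, among them PTPRC, CSF1R and TYROBP, and AIF1 passed at 5.93 ± 0.10 on aligned fibers and 5.76 ± 0.14 on random ones (SD over 3 arrays each). The summed linear signal of these 9 was 254 to 263 over aligned arrays and 231 to 253 over random arrays. The endothelial markers CDH5, TEK and CLDN5 were likewise below every median, and 3 of 6 passed.

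Most of the mesenchymal genes had a clear signal in this line. All 6 arrays were above the median for CD44, MET, both caveolins, all galectins, annexins and S100 proteins of the list, and for 30 of the 31 tested members in all, with IL4R as the exception. CD44, the hyaluronan receptor, read 12.66, 12.52 and 12.41 on the aligned arrays and 12.78, 12.65 and 12.50 on the random arrays. S100A6, a calcium-binding protein, read 13.82, 13.85 and 13.96 on aligned and 13.80, 13.76 and 13.75 on random arrays. These 2 genes thus had a high signal on both substrates.

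Other hallmarks of the subtype had little or no signal. CHI3L1, the secreted chitinase-like glycoprotein YKL-40, read 4.58, 4.88 and 4.70 on aligned and 4.06, 4.82 and 4.67 on random arrays, below the median on each. PDPN, a mucin-like membrane protein, read 4.08, 4.29 and 4.35 on aligned and 4.07, 4.26 and 4.11 on random arrays. The TNF receptor gene TNFRSF1B averaged 3.81 ± 0.08 on aligned and 3.67 ± 0.11 on random fibers, and the complement inhibitor SERPING1 averaged 4.55 ± 0.11 and 4.40 ± 0.07 (SD, n = 3 each). The groups overlapped in all 4 genes. NF1, the GTPase-activating brake on RAS, had 1 probe set of its own with a mean of 2.91 ± 0.10 on aligned fibers and 2.82 ± 0.10 on random ones (SD over 3 arrays each). Its 9 further probe sets carry several symbols and were not used, so the level of NF1 rests on that 1 probe set.

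The remaining 3 untested members lay at the limit of the filter, above the median on 2 arrays each. TGM2, a protein cross-linking transglutaminase, read 5.54, 5.68 and 6.09 on aligned and 5.56, 5.51 and 5.45 on random arrays. CAPG, an actin filament capping protein, read 5.65, 5.54 and 6.46 on aligned and 5.60, 5.60 and 5.65 on random arrays. In both genes the array aligned 3 alone stood clear of the others. CASP1, the inflammatory caspase, read 5.65, 5.69 and 5.58 on aligned and 5.67, 5.60 and 5.61 on random arrays, with no separation.

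**Figure D1:**
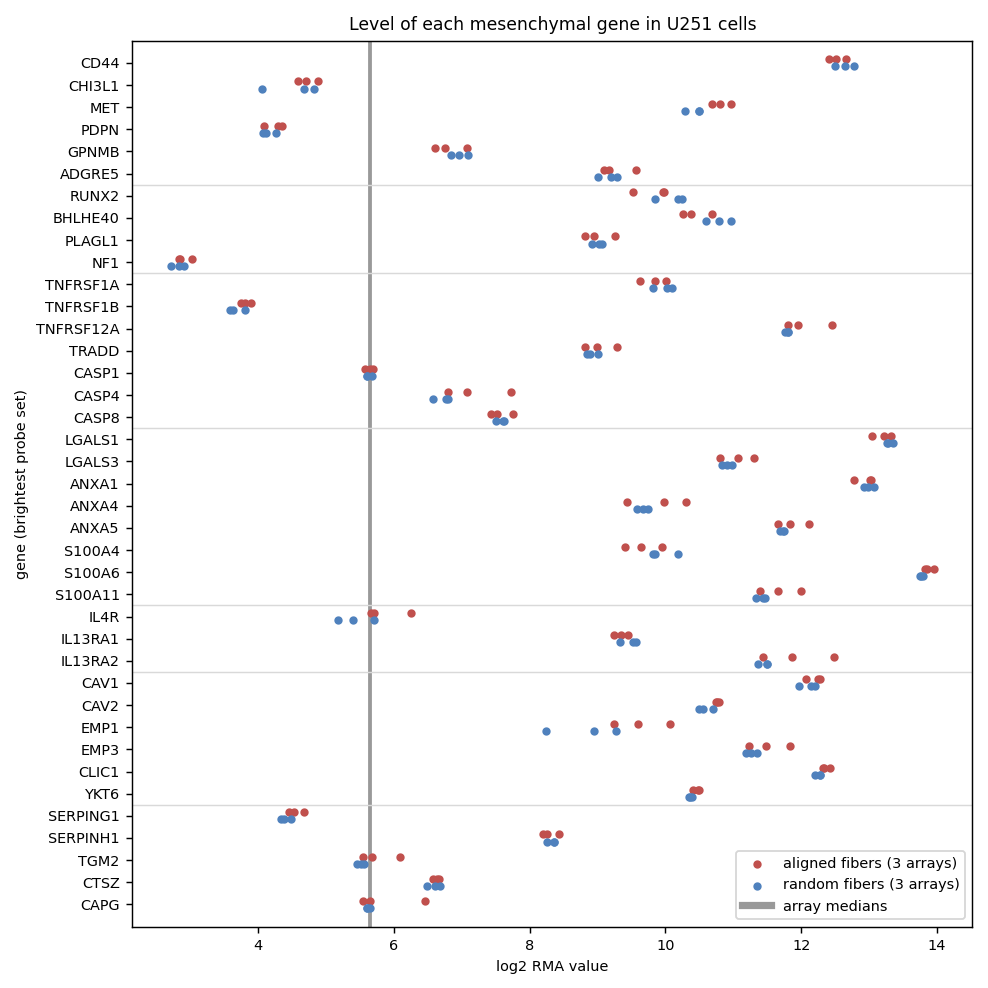
Log2 RMA value of the brightest probe set of each of the 39 mesenchymal genes (rows, grouped by role) on the 3 aligned and 3 random arrays, with the grey band marking the array medians of 5.63 to 5.66. CD44, LGALS1, ANXA1 and S100A6 lie far to the right of the band on both substrates, and CHI3L1, PDPN, NF1, TNFRSF1B and SERPING1 lie to its left. Probe sets differ in affinity, so distances between rows are not differences in abundance.

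Between the substrates, none of the 31 tested members passed the threshold of 0.05 in limma with Benjamini-Hochberg adjustment over 12381 genes, where 0.00% of all genes passed and no adjusted p was below 0.463. An unadjusted p under 0.05 was reached by 5 members, or 16.1%, against 10.5% of all genes tested. MET, EMP1, CAV2 and IL4R were the 4 with a higher mean on aligned fibers, where the share of all genes was 4.72%, and BHLHE40 was the 1 with a lower mean, where it was 5.81%. IL4R passed the filter through its aligned arrays, which favoured a positive value; of the 30 members above the median on all arrays, 4, or 13.3%, reached an unadjusted p under 0.05, and 3 of these had a higher mean. In 6 members every aligned array exceeded every random array, against 8.71% of all genes, and in 0 members every aligned array was the lower, against 9.33%. The 6 were MET, CASP4, S100A6, CAV2, CLIC1 and YKT6. Groups that did not overlap thus made up 19.4% of the members and 18.0% of all genes. Of the 31 members 20 had a positive difference, which is 64.5%, against 52.5% of all genes, and their median difference was 0.10, against 0.01 over all genes. In RNA of whole cultures, fewer cells that express a gene and less RNA of it per cell cannot be told apart.

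The array of aligned 3 had the largest part in the size of these differences. Its root mean square distance from the mean of the random arrays was 0.51 over the members and 0.38 over all genes, against 0.21 over the members for each of aligned 1 and aligned 2. It was the aligned array farthest from the random mean in 24 of 31 members, a share of 77.4%, and in 60.9% of all genes. Without it the median difference of the members was 0.03 and that of all genes 0.00. The sign of 5 small differences changed, those of ADGRE5, PLAGL1, TRADD, CASP8 and ANXA1. Then 19 of the 31 members had a positive difference, against 20 with all arrays. Over all genes the share was 48.5%, against 52.5% with all arrays. The lean of the members to positive signs thus stayed, while their median shrank. Of the members 2, MET and GPNMB, then had an unadjusted p under 0.05, which is 6.45% of the members and 6.58% of all genes. The count of 5 was 12 without aligned 1 (20.1% of all genes), 3 without random 2 (5.97%) and 2 without random 3 (5.04%). It was 6 with the replicate number as a block (13.6% of all genes), where MET, CAV2 and BHLHE40 stayed, EMP1 and IL4R left and RUNX2, S100A4 and IL13RA2 entered, 16 with array weights (34.9%; 4 members, MET, CAV2, CASP4 and IL13RA2, and 17.0% of all genes were then past the adjusted threshold), 3 in an ordinary two-sample test (6.74%) and 3 without probe sets that share sequence (10.7%). The groups have 3 arrays each, and the 95% intervals of the members' differences reached 0.16 to 0.68 log2 units to either side.

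**Figure D2:**
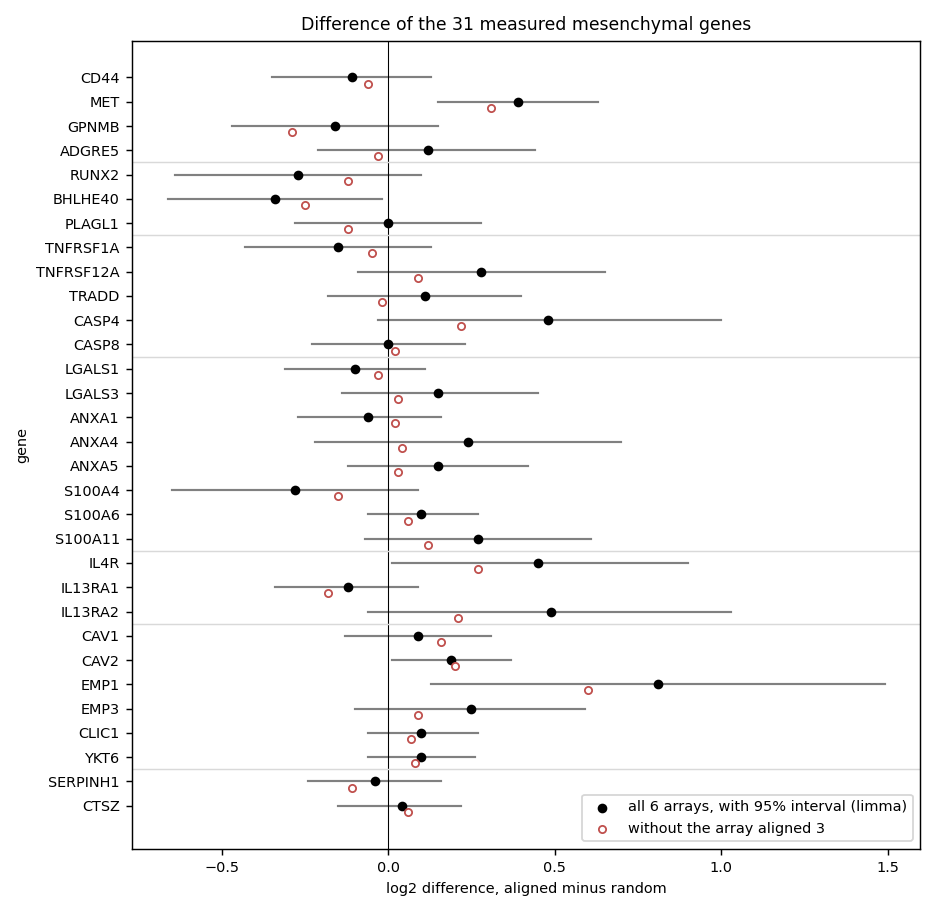
Log2 difference, aligned minus random, of the 31 tested mesenchymal genes (rows, grouped by role) with 95% intervals from limma in black, and the difference without the array aligned 3 as open red circles. Intervals of MET, EMP1, CAV2, IL4R and BHLHE40 leave out 0, and no gene passed after adjustment. Circles of CASP4, IL13RA2, TNFRSF12A, S100A11 and EMP3 lie much nearer to 0 than their black points.

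Among the surface hallmarks, MET had the smallest p of the members. MET is the receptor tyrosine kinase for hepatocyte growth factor, which drives scattering and invasion of epithelial and glioma cells. It read 10.68, 10.80 and 10.97 on aligned and 10.49, 10.50 and 10.29 on random arrays, so every aligned array lay above every random array. The difference was 0.39 ± 0.10 (SE), or 1.31-fold, with a 95% interval of 0.15 to 0.63 (limma adjusted p = 0.463). All 4 of its measured probe sets had positive differences of 0.33 to 0.46, each with an unadjusted limma p under 0.05, and 2 of them did not overlap between the groups. These probe sets read the same RNA on the same arrays and are not replicates. MET was at 0.31 without aligned 3, and its unadjusted p was under 0.05 in all 17 settings tried, from 0.000249 to 0.0238.

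CD44 had a small difference of -0.11 ± 0.10 (SE) in its brightest probe set, with overlapping groups (limma adjusted p = 0.657), and -0.06 without aligned 3. All 12 of its measured probe sets had negative differences, from -0.67 to -0.11. In the second brightest probe set the aligned arrays read 12.33, 12.01 and 11.58 and the random arrays 12.43, 12.11 and 12.13. The lowest value on aligned 3 recurred in the other probe sets of the gene: the dimmest tested one read 6.11, 5.68 and 4.99 on aligned and 6.20, 6.45 and 6.13 on random arrays. It was the 1 probe set of CD44 without overlap and the 1 with an unadjusted p under 0.05 (limma adjusted p over all probe sets = 0.511).

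GPNMB, a glycoprotein of macrophages and pigment cells, read 6.60, 6.75 and 7.07 on aligned and 6.84, 6.96 and 7.09 on random arrays, with overlapping groups. Its difference was -0.16 ± 0.13 (SE) over all arrays and -0.29 without aligned 3, where its unadjusted p in limma was under 0.05. ADGRE5, an adhesion receptor that binds CD55, differed by 0.12 ± 0.14 (SE) and by -0.03 without aligned 3.

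**Figure D3:**
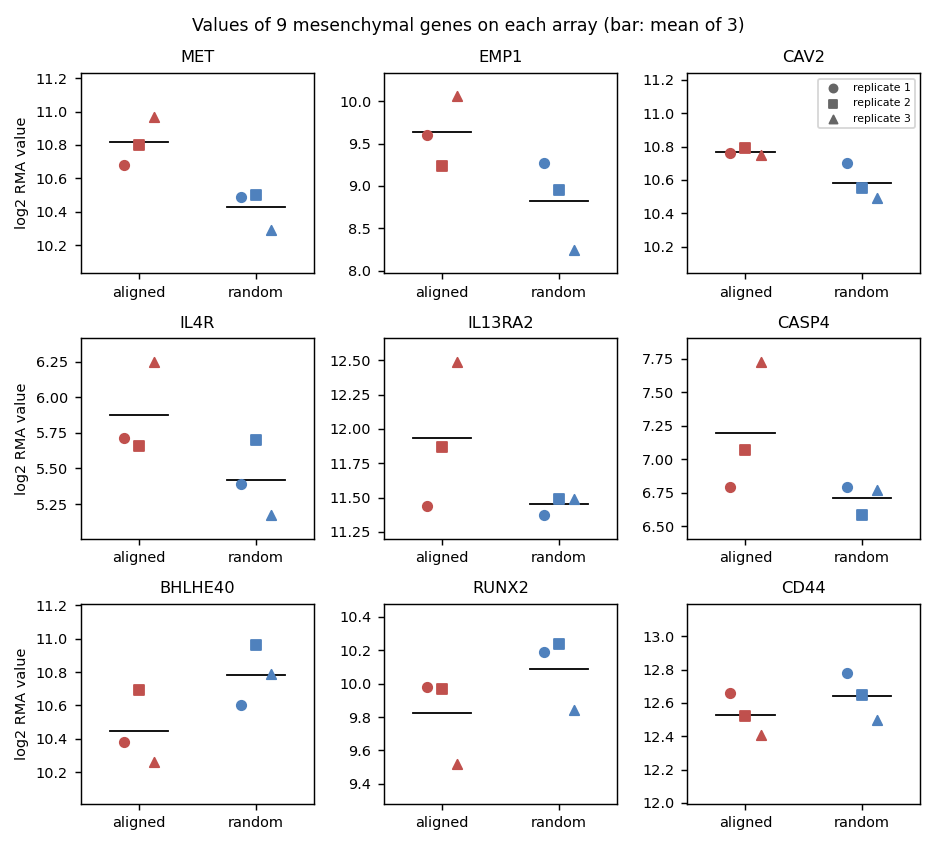
Log2 RMA values of 9 mesenchymal genes on each array, with aligned arrays at the left and random arrays at the right of each panel, marker shapes for replicates 1 to 3 and a bar at the mean of 3. The groups of MET, CAV2 and CASP4 do not overlap, and in MET, EMP1, IL13RA2, IL4R and CASP4 the triangle of aligned 3 lies above the other aligned arrays.

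Of the 3 tested regulators, BHLHE40 and RUNX2 had negative differences and PLAGL1 had none to 2 decimals. BHLHE40, a helix-loop-helix repressor induced by hypoxia and part of the circadian clock, read 10.38, 10.69 and 10.26 on aligned and 10.60, 10.96 and 10.79 on random arrays. The difference was -0.34 ± 0.14 (SE), with a 95% interval of -0.66 to -0.02 (limma adjusted p = 0.472). Its second probe set gave -0.33 and did not overlap between the groups, while in the brighter one aligned 2 lay among the random arrays. BHLHE40 was at -0.25 without aligned 3 and at -0.18 with array weights, and in both its unadjusted p in limma was above 0.05. In each of the 16 settings that tested it the difference was negative, and in 10 of them the unadjusted p was under 0.05.

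RUNX2, the runt-domain factor of bone formation, read 9.98, 9.97 and 9.52 on aligned and 10.19, 10.24 and 9.84 on random arrays, a difference of -0.27 ± 0.16 (SE, limma adjusted p = 0.529) that was -0.12 without aligned 3. With the replicate number as a block its unadjusted p was under 0.05 and its limma adjusted p was 0.362. The groups overlapped through random 3. Other probe sets of RUNX2 gave larger and smaller values. The dimmest tested probe set read 6.26, 6.17 and 4.97 on aligned and 6.77, 6.83 and 6.61 on random arrays, a difference of -0.94 (limma adjusted p = 0.506). The second brightest differed by -0.87 (limma adjusted p = 0.507), also without overlap, while the third differed by 0.02. The probe sets of this gene therefore disagree in size by far more than those of MET, and the mean over them was at -0.51. PLAGL1, an imprinted zinc-finger factor, differed by 0.00 ± 0.12 (SE), with a 95% interval of -0.28 to 0.28.

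**Figure D4:**
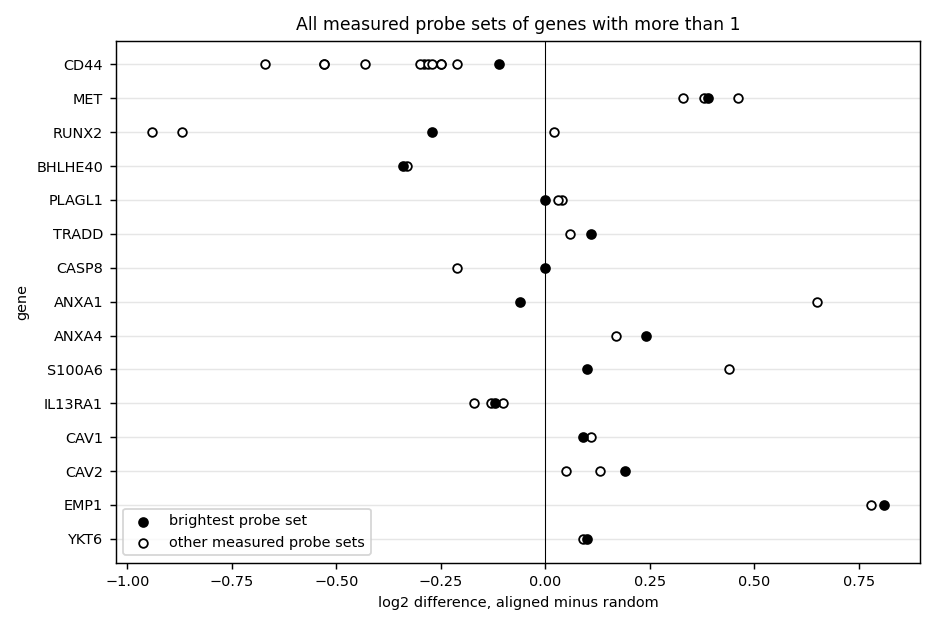
Log2 difference, aligned minus random, of every tested probe set for the 15 mesenchymal genes with more than 1 (rows), with the brightest as a filled and the others as open circles. In 13 of these genes all circles lie on the same side of 0 or, for PLAGL1 and CASP8, also at it to 2 decimals, including 12 circles of CD44 to the left and 4 of MET to the right; RUNX2 and ANXA1 have circles on both sides.

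The TNF receptor and caspase genes gave no member at an unadjusted p under 0.05. CASP4, the inflammatory caspase that senses intracellular lipopolysaccharide, read 6.79, 7.07 and 7.73 on aligned and 6.79, 6.58 and 6.77 on random arrays. The groups just failed to overlap, since aligned 1 and random 1 differed by 0.01. The difference was 0.48 ± 0.22 (SE, limma adjusted p = 0.474) and 0.22 without aligned 3. TNFRSF12A, the receptor for the cytokine TWEAK and a gene tied to glioma migration, read 11.80, 11.96 and 12.45 on aligned and 11.81, 11.80 and 11.76 on random arrays, a difference of 0.28 ± 0.16 (SE). Aligned 3 was high and the other 5 arrays close together, and the difference was 0.09 without it. TNFRSF1A, the main TNF receptor, differed by -0.15 ± 0.12 (SE), its adaptor TRADD by 0.11 ± 0.12 and the initiator caspase CASP8 by 0.00 ± 0.10, with overlap in each. Without aligned 3 TNFRSF1A was at -0.05 and TRADD at -0.02.

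The 8 galectin, annexin and S100 genes were all tested and all overlapped between the groups except S100A6. They had 5 positive and 3 negative differences between -0.28 and 0.27, and none reached an unadjusted p under 0.05 in limma. In all 8 the aligned array farthest from the random mean was aligned 3. S100A11 read 11.40, 11.66 and 11.99 on aligned and 11.33, 11.47 and 11.44 on random arrays, a difference of 0.27 ± 0.14 (SE, limma adjusted p = 0.500) that was 0.12 without aligned 3. S100A4, a calcium-binding protein of motile cells, went the other way with 9.95, 9.64 and 9.41 on aligned and 10.18, 9.85 and 9.81 on random arrays, a difference of -0.28 ± 0.16 (SE, limma adjusted p = 0.514) that was -0.15 without aligned 3 and -0.16 without random 1. With the replicate number as a block its unadjusted p was under 0.05 and its limma adjusted p was 0.362. S100A6 differed by 0.10 ± 0.07 with every aligned array above every random array. The 3 S100 genes thus did not share a direction.

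ANXA4 and ANXA5, calcium-dependent binders of membrane phospholipid, differed by 0.24 ± 0.20 and 0.15 ± 0.12 (SE), and both were close to 0 without aligned 3, at 0.04 and 0.03. ANXA1, which dampens inflammation, differed by -0.06 ± 0.09 in the brightest probe set. Its dim second probe set gave 0.65, with 6.21, 8.21 and 7.70 on aligned and 6.16, 7.67 and 6.35 on random arrays, a spread within the groups larger than the difference. LGALS1 and LGALS3, galectins that bind cell-surface sugars, differed by -0.10 ± 0.09 and 0.15 ± 0.13 (SE), and by -0.03 and 0.03 without aligned 3.

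The receptors for interleukins 4 and 13 differed among themselves. IL13RA2, a high-affinity receptor for interleukin 13 that is a known glioma antigen, read 11.44, 11.87 and 12.49 on aligned and 11.37, 11.49 and 11.49 on random arrays. Its difference was 0.49 ± 0.23 (SE, limma adjusted p = 0.486) and 0.21 without aligned 3. Its unadjusted p was under 0.05 with the replicate number as a block (limma adjusted p = 0.362). IL4R, the interleukin 4 receptor subunit, read 5.71, 5.66 and 6.25 on aligned and 5.39, 5.70 and 5.17 on random arrays, near the filter's limit. The difference was 0.45 ± 0.19 (SE, limma adjusted p = 0.472), and 0.27 without aligned 3. In the fit blocked by replicate number its unadjusted p was above 0.05, and array weights put its difference at 0.11. IL4R lay above the median on 4 arrays, and all 3 aligned arrays were among them, so the filter itself favoured a positive value there. IL13RA1, the subunit that pairs with IL4R, differed by -0.12 ± 0.09 (SE), with 4 of 4 probe sets negative between -0.17 and -0.10.

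The 6 genes grouped here as membrane genes, CAV1, CAV2, EMP1, EMP3, CLIC1 and YKT6, were the 1 role group in which every difference was positive. Each of them was also positive between the arrays of every number. Of all genes 52.5% had a positive difference, and 23.1% were positive for every number, against 35.5% of the members. Their median difference was 0.15 over all arrays and 0.12 without aligned 3, and 0 of 6 passed the adjusted threshold. Membrane proteins of the list in other groups had either sign, with MET at 0.39, CD44 at -0.11 and GPNMB at -0.16. EMP1, an epithelial membrane protein of the claudin-like tetraspan family, had the largest difference of all members. It read 9.60, 9.24 and 10.06 on aligned and 9.27, 8.95 and 8.24 on random arrays, with aligned 2 just below random 1. The difference was 0.81 ± 0.29 (SE), or 1.75-fold, with a 95% interval of 0.13 to 1.49 (limma adjusted p = 0.463). Its other tested probe set gave 0.78. Both ends of the comparison enter here, since the difference was 0.60 without aligned 3 and 0.52 without random 3. With the replicate number as a block its unadjusted p was above 0.05, and with array weights EMP1 was at 0.35.

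CAV2, a caveolin that coats membrane invaginations together with CAV1, read 10.76, 10.79 and 10.75 on aligned and 10.70, 10.55 and 10.49 on random arrays. The aligned values lay close together and above every random value, with a difference of 0.19 ± 0.08 (SE, limma adjusted p = 0.472) that was 0.20 without aligned 3. Its second brightest probe set, almost as bright, gave 0.05 and the third 0.13, both with overlapping groups, so the separation holds for 1 of 3 probe sets of CAV2. Where probe sets that share sequence were left out, CAV2 was at 0.05 and its unadjusted p was above 0.05. CAV1 differed by 0.09 ± 0.09 with overlapping groups. CLIC1, a chloride intracellular channel protein, and YKT6, a SNARE of vesicle fusion, differed by 0.10 ± 0.07 each, without overlap between the groups (limma adjusted p = 0.566 and 0.567). EMP3, a relative of EMP1, differed by 0.25 ± 0.15 (SE) and by 0.09 without aligned 3. The remaining 2 tested members were near 0. SERPINH1, the collagen chaperone HSP47, differed by -0.04 ± 0.09, and the lysosomal protease CTSZ by 0.04 ± 0.08 (SE).

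**Figure D5:**
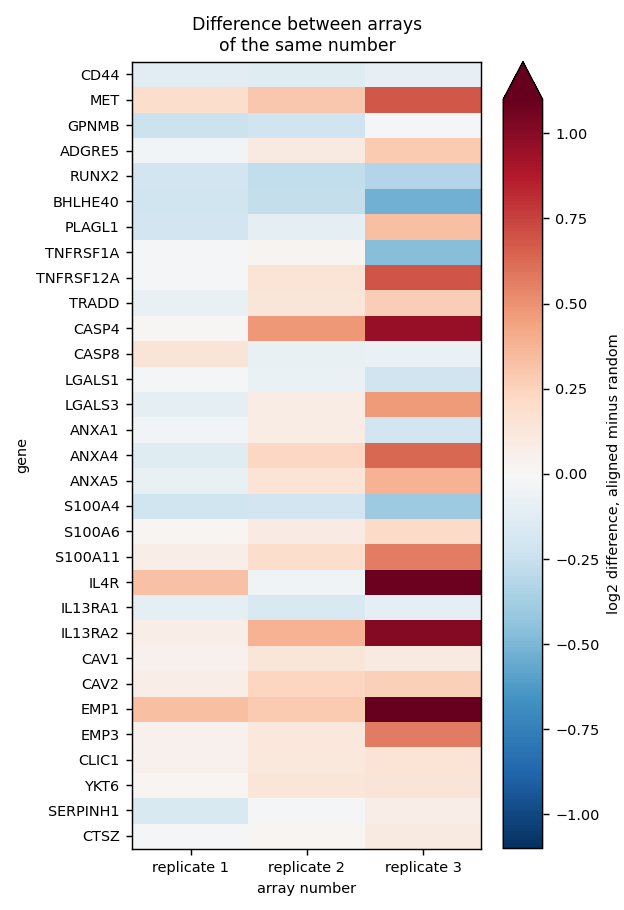
Log2 difference between the aligned and the random array of the same number (columns 1 to 3) for the 31 tested mesenchymal genes (rows, grouped by role), red where aligned is higher and blue where it is lower. The third column holds the strongest colours, with EMP1 at 1.82, IL4R at 1.08 and IL13RA2 at 1.01, and the rows of CAV1 to YKT6 are red throughout.

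Taken by array number, the median difference of the members was -0.01 for number 1, 0.09 for number 2 and 0.21 for number 3. All 3 were positive in 11 members, or 35.5%, against 23.1% of all genes, and all 3 negative in 7, or 22.6%, against 22.0%. These 7 were CD44, RUNX2, BHLHE40, S100A4, IL13RA1, LGALS1 and GPNMB.

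Letters of the regulators' binding motifs were looked up in the promoters of the members, because some regulators are members themselves and others were measured. RefSeq windows of 300 bases around the gene start, in GRCh38.p14, were at hand for 26 of the 31 tested members and for 27305 genes in all. They are shown for the member with the largest difference, for the member with the smallest p and for the regulator BHLHE40, with motif matches in capitals. The windows lie on the + strand at chr12:13196476-13196775 for EMP1, chr7:116671946-116672245 for MET and chr3:4979187-4979486 for BHLHE40.
EMP1: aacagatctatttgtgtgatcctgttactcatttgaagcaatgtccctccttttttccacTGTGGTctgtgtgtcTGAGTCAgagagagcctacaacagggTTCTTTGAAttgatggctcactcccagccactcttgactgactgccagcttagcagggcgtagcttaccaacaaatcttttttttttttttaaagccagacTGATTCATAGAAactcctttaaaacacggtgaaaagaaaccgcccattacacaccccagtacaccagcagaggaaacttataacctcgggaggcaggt
MET: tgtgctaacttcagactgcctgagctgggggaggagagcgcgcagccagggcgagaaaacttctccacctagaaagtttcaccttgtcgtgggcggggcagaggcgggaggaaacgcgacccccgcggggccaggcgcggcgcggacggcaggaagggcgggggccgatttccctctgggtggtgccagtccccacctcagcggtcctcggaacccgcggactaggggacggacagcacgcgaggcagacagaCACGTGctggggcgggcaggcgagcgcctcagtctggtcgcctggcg
BHLHE40: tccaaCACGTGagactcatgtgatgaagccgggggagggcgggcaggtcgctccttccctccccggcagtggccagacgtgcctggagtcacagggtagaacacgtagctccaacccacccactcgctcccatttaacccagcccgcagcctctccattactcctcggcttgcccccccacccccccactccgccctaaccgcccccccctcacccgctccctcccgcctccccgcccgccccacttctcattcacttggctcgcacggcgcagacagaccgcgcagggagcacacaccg
The EMP1 window holds the AP-1 letters TGANTCA at base 76 and at base 203, counted from its first base, the STAT letters TTCNNNGAA at bases 102 and 206, and the RUNX letters TGTGGT at base 61. The second AP-1 and STAT matches overlap. MET and BHLHE40 each hold the E-box letters CACGTG, the kind of site BHLHE40 binds, at bases 254 and 6. Over both strands, AP-1 letters were found in 4 of the 26 windows (15.4%, against 7.76% of all promoters), STAT letters in 3 (11.5% against 7.88%), RUNX letters in 4 (15.4% against 13.1%) and the E-box in 2 (7.69% against 7.43%). The C/EBP letters TTGCNNAA were found in 3 (11.5% against 10.6%), and the TEAD letters CATTCC in 0 (against 14.0%). The windows also differ in base content, with a median GC share of 64.3% in the 26 and 58.3% in all promoters. All promoters were not limited to tested genes. The window of CAV2, which is not shown, holds none of these letters. A match describes the letters and is not a site of binding, and these counts were not tested.

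The regulators that are no members showed both directions. Of 13 tested master regulators of the mesenchymal state 7 had a positive and 6 a negative difference, 0 passed over all genes, and 6 reached an unadjusted p under 0.05, with 3 higher and 3 lower on aligned fibers, against 10.5% of all genes, 4.72% higher and 5.81% lower. FOSL1, an AP-1 subunit, averaged 10.12 on aligned and 9.52 on random fibers, a difference of 0.60 ± 0.14 (SE, limma adjusted p = 0.463). CEBPD, a C/EBP factor of the acute-phase response, averaged 7.40 on aligned and 7.83 on random fibers, a difference of -0.43 ± 0.11 (SE, limma adjusted p = 0.463). Both pairs of groups were without overlap. STAT3 and FOSL2, both described as drivers of the subtype, differed by -0.40 ± 0.16 and -0.36 ± 0.14 (SE), and CEBPB by 0.44 ± 0.20. Without aligned 3 they were at -0.22, -0.22 and 0.22. SNAI2 and RELB, which like FOSL1 were higher at an unadjusted p under 0.05 in limma, differed by 0.54 ± 0.19 and 0.42 ± 0.16 (SE). Their groups did not overlap, and without aligned 3 the differences were 0.42 and 0.26. WWTR1, which encodes the co-activator TAZ, averaged 10.59 on aligned and 10.79 on random fibers, with a difference of -0.20 ± 0.17 (SE) that was -0.01 without aligned 3.

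Of 29 further tested mesenchymal genes outside the member list, 19 had a positive difference with a median of 0.10, and 0 passed over all genes. At an unadjusted p under 0.05 there were 5 higher and 1 lower, against 4.72% and 5.81% of all genes. LOX, which cross-links collagen, differed by -0.40 ± 0.11 (SE, limma adjusted p = 0.463), and the LIM protein FHL2 by 0.53 ± 0.15 (SE, limma adjusted p = 0.463). Proneural genes, which mark another subtype, had a probe set for 21 genes, of which 12 were tested, and 9 of these had a negative difference, with a median of -0.11, against 47.5% negative over all genes. There, 4 genes had an unadjusted p under 0.05, all lower on aligned fibers, against 5.81% of all genes, and 0 passed over all genes. SOX4 differed by -0.55 ± 0.18 (SE, limma adjusted p = 0.463) and by -0.32 without aligned 3, and TCF4 by -0.43 ± 0.17 (SE, limma adjusted p = 0.472) and by -0.23. OLIG2, the oligodendrocyte-lineage factor of the proneural subtype, was below the median on every array. Classical genes had 4 positive and 6 negative differences, and 0 passed over all genes. At an unadjusted p under 0.05 in limma 3 were higher and 2 lower, against 4.72% and 5.81% of all genes. Among the higher ones, PDGFA differed by 1.16 ± 0.32 (SE, limma adjusted p = 0.463) and by 0.91 without aligned 3. EGFR differed by 0.45 ± 0.16 (SE, limma adjusted p = 0.463) and by 0.43 without it.

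Cell markers were compared between the substrates in the same fit. All 7 tested glioma cell markers, CD44 among them, had a negative difference, against 47.5% of all genes. Their median was -0.44 over all arrays and -0.22 without aligned 3. GFAP passed the filter on 3 arrays, random 1, random 2 and aligned 1 (6.65, 6.20 and 5.80), so the filter itself favoured a negative value there. SOX9 and SOX2 differed by -0.53 ± 0.18 and -0.44 ± 0.18 (SE), and by -0.31 and -0.22 without aligned 3. The summed linear signal of the 10 markers, to which VIM adds most, was 29000 to 38800 over aligned and 38700 to 41100 over random arrays. The ranges thus met at their edges. Aligned 3 was the low end and the lowest aligned array in VIM, CD44, NES, SOX2, SOX9 and FABP7. Of the neuron genes SYT1 differed by 0.56 ± 0.14 and NEFL by -1.38 ± 0.46 (SE), the second at -0.79 without aligned 3. The 3 tested endothelial genes had both signs, with PECAM1 at 0.15 ± 0.10, VWF at 0.06 ± 0.08 and KDR at -0.13 ± 0.19 (SE). KDR was at 0.07 without aligned 3. None of these passed over all genes, and their part in the members' differences was not tested.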

How the data were processed

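Total RNA from 6 U251 cultures was read on Affymetrix HG-U133 Plus 2 arrays. The deposited table holds log2 values from RMA, which per the submitters' processing notes the authors used. How RMA was set, and in which version, is not given in the sources used here. After removal of 62 control probe sets, 54613 remained, of which 41091 had 1 gene symbol, 1801 several and 11721 none. Probe sets stayed in the fit if they exceeded the array median on at least 3 of 6 arrays, and the brightest of these by mean stood for its gene.

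Aligned minus random was modelled with limma 3.58.1 (lmFit, eBayes) under R 4.3.3 on 12381 genes, two-sided, with Benjamini-Hochberg adjustment over all of them and no covariate. The code was tested on simulated data. The few arrays limit the precision, with a median standard error of 0.12 over the members' differences. All members are named, and of each further gene list those past the threshold, filled up to 2 with the smallest p. WWTR1, STAT3, FOSL2, CEBPB, SNAI2, RELB, OLIG2 and cell markers beyond these were named outside this rule, after their values were seen. Members and lists were chosen with earlier results of these data known.

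The labels give no meaning to replicate numbers 1 to 3. Deviations from the group means correlated by 0.369, 0.322 and 0.109 between arrays of equal number, so the number was used as a block in an alternative fit, while the values given come from the fit without it. This pairing comes from the values alone, and aligned 2 also correlated with random 3, by 0.188. Alternatives were filters, scalings, variance models, array weights, probe set choices, the number as a block and each array left out. Plots were made with matplotlib 3.10.9 (Python 3.11.15).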

Additional observations from a re-analysis of the deposited data

How the results depend on the processing

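With the replicate number as a block, 0 genes passed the adjusted threshold and 6 members had an unadjusted p under 0.05 against 5 without it, of which 3 were shared. EMP1 and IL4R were then above it, and RUNX2, S100A4 and IL13RA2 below. Array weights of limma gave 2101 genes past the adjusted threshold and 4326 at an unadjusted p under 0.05, with 16 members at the unadjusted level and MET, CAV2, CASP4 and IL13RA2 past adjustment; the cause was not tested. An unadjusted p under 0.05 was reached by 851 genes with the filter at the 75th percentile, where fewer genes were tested, and 835 with an ordinary two-sample test, which called 3 members. Leaving out probe sets that share sequence, by their suffix, left 20 members to test, of which 3 reached it. With 1 array left out, 624 to 2491 genes and 2 to 12 members reached it, 0 genes passed the adjusted threshold, and the median difference of the members was 0.03 (without aligned 3) to 0.13. MET, EMP1 and CAV2 kept their sign in all 16 alternatives, and BHLHE40 and IL4R in the 15 that tested each. Without detection calls, dim probe sets could be judged by rank on their array alone. The count over the 30 members above the median on all arrays, 4, was added after seeing the data.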

Other observations

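MET, CAV1 and CAV2 lie side by side on chromosome 7 in the RefSeq gene order, with no other protein-coding gene between them. CAV2 differed by 0.19, CAV1 by 0.09 and MET by 0.39, and the next gene, CAPZA2, an actin capping subunit that is no member, by -0.01 (limma unadjusted p = 0.873). These genes were looked at together after their values were seen.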
